A study of Mus musculus with 12 samples.

Results

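The 10 genes described here belong to mitogen-activated protein kinase (MAPK) feedback and output, and were read in mouse brain tumours and normal mouse brain: the Sprouty genes Spry1, Spry2 and Spry4, the Spred genes Spred1, Spred2 and Spred3, the dual-specificity phosphatase genes Dusp4 and Dusp6, and the ETS-family transcription factor genes Etv4 and Etv5. They were chosen by name with earlier results of these data known, and so were the gene lists used below. Counts set beside shares of all genes are therefore descriptions and not independent tests. Each of the 10 genes was found under a single Ensembl identifier among the 49671 genes of the deposited count table. All 10 passed the filter on low counts, which kept 17812 genes. RNA sequencing was done on 12 libraries from formalin-fixed, paraffin-embedded tissue, 3 per group, and the stated aim of the series was to place IDH1 mutant and wild-type gliomas among glioma subtypes. The groups were IDH1_R132H tumours, labelled by the isocitrate dehydrogenase 1 mutant that recurs in human diffuse glioma, IDH1WT tumours with the unmutated enzyme, PDGFA tumours with the A chain of platelet-derived growth factor, and normal brain. Mice of the 4 groups carried floxed alleles that include Cdkn2a and Atrx, so the normal brains carried them too. Mice bearing tumours were N::TVA, where TVA is the receptor that admits avian RCAS vectors, driven in this line by the Nestin promoter, which is active in neural progenitors. Normal brain came from mice without TVA. Whether IDH1 tumours also received PDGFA, and whether each library was a separate animal, is not given in the sources used here. The p-values therefore measure only the spread between libraries.

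MAPK signalling runs from receptor tyrosine kinases such as the platelet-derived growth factor receptor through Ras, Raf and MEK to the kinase ERK. Active ERK raises the transcription of its own brakes: Sprouty proteins act between the receptor and Ras, Spred proteins bring the Ras inactivator neurofibromin to the membrane, and the phosphatases DUSP4 and DUSP6 remove phosphate from ERK in the nucleus and the cytoplasm. ETV4 and ETV5 are transcription factors made in response to the same signal, and transcripts of these families are commonly read as a record of ERK output. In the brain, the pathway is known for driving growth of oligodendrocyte precursors through the receptor PDGFRA.

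Because ETV4 and ETV5 bind DNA around the core GGAA, the bases before the annotated starts of the feedback genes are shown for Spry1 and Dusp6, the called genes for which a promoter was at hand, and for Spred1, the gene with the highest level per length. The 250 bases upstream of the start come from RefSeq on GRCm38.p6. They are chr3:37639697-37639946 for Spry1, chr10:99262981-99263230 for Dusp6 and chr2:117120821-117121070 for Spred1, each on the plus strand. Capitals mark GGAA and its reverse complement TTCC.
Spry1: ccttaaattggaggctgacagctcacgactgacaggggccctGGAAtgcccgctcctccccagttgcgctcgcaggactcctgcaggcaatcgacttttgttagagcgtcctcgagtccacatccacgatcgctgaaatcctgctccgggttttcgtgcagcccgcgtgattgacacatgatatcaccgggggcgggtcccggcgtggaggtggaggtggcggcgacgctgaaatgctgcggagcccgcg
Dusp6: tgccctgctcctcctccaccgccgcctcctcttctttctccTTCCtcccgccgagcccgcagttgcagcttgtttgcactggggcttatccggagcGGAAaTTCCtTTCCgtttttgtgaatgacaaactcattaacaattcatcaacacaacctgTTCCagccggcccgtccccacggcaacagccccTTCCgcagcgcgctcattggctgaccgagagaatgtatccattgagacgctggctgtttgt
Spred1: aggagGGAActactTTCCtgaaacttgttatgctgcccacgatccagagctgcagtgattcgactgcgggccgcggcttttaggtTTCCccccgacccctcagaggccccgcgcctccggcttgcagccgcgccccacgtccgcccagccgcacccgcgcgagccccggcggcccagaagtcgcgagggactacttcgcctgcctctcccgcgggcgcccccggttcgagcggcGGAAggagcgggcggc
RefSeq promoters were at hand for 7 of the 10 genes, and Spry4, Dusp4 and Etv4 are named only. The core GGAA, read on both strands, matched once for Spry1, 6 times for Dusp6, 4 times for Spred1, 7 times for Spred2, 3 times for Spry2 and once for Spred3. Etv5 had 0 matches before one annotated start and 4 before another. Of 32851 mouse promoters of the same length, 93.4% held the core, with a median of 3 matches, so its presence does not set these genes apart. The longer ETS sequence CCGGAAG, which contains the core, and the AP-1 sequence TGACTCA matched none of these promoters on either strand, against 6.91% and 4.46% of all promoters.

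Total counts were between 6507923 and 14277395 per library, and each of the 10 genes had between 46 and 4535 reads in a library. The typical spread between libraries of a group, as a biological coefficient of variation over all genes, was 26.5%. A pair of libraries stood apart. IDH1_R132H tumour 3 had 46.2% of its counts on loci that take up ribosomal RNA reads, against 2.95% to 19.5% in the other libraries. PDGFA tumour 1 lay at 45.5 on the first principal component, among the normal brains at 42.3 to 45.8, while its label is tumour. Its summed cell markers, described below, were not those of normal brain. Myelinating oligodendrocyte markers summed to 11207 CPM in it against 3395 to 3451 CPM in normal brain. Astrocyte markers summed to 1009 against 4892 to 5006 CPM, and cell cycle markers to 118 against 15.6 to 23.7 CPM. Results that rest on either library are given with and without that library. Exons of Spry1 and Spred3 are overlapped by a gene on the opposite strand, Gm42922 and Ggn, and the strand setting of the counting is not given, so reads of each pair cannot be told apart. Levels below are in CPM, reads of a gene scaled to a common library total, after trimmed mean of M-values (TMM) scaling of the libraries.

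Read per kilobase of exon, Spred1 had the highest level of the 10 genes in tumours and in normal brain, at 49.1 ± 10.1 CPM per kb in tumours (SD, n = 9) and 43.1 ± 3.32 CPM per kb in normal brain (SD, n = 3). Spry2 at 26.7 ± 8.39, Dusp6 at 25.3 ± 5.62, Spry4 at 19.8 ± 9.26, Spred2 at 19.3 ± 5.24 and Spry1 at 16.3 ± 8.43 CPM per kb (SD, n = 9 each) followed in tumours, and each of these 5 lay within the spread of its neighbour. Etv5 at 13.2 ± 4.84, Etv4 at 9.92 ± 5.32, Spred3 at 9.23 ± 2.85 and Dusp4 at 3.16 ± 0.9 CPM per kb (SD, n = 9 each) closed the order in tumours. The order differed in normal brain, where Spred1 was followed by Spred2 at 17.6 ± 0.83, Spry2 at 16.8 ± 1.49, Dusp6 at 13.2 ± 0.94 and Etv5 at 11.2 ± 1.36 CPM per kb (SD, n = 3 each). Spred2 and Spry2 did not differ beyond their spread there. The lower end in normal brain was Spred3 at 7.77 ± 0.65, Spry4 at 4.08 ± 0.37, Spry1 at 3.07 ± 0.42, Dusp4 at 2.94 ± 0.35 and Etv4 at 1.87 ± 0.26 CPM per kb (SD, n = 3 each), with Spry1 and Dusp4 within each other's spread. Dusp4 thus had the lowest mean level of the 10 in tumours, and Etv4 in normal brain.

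**Figure D1:**
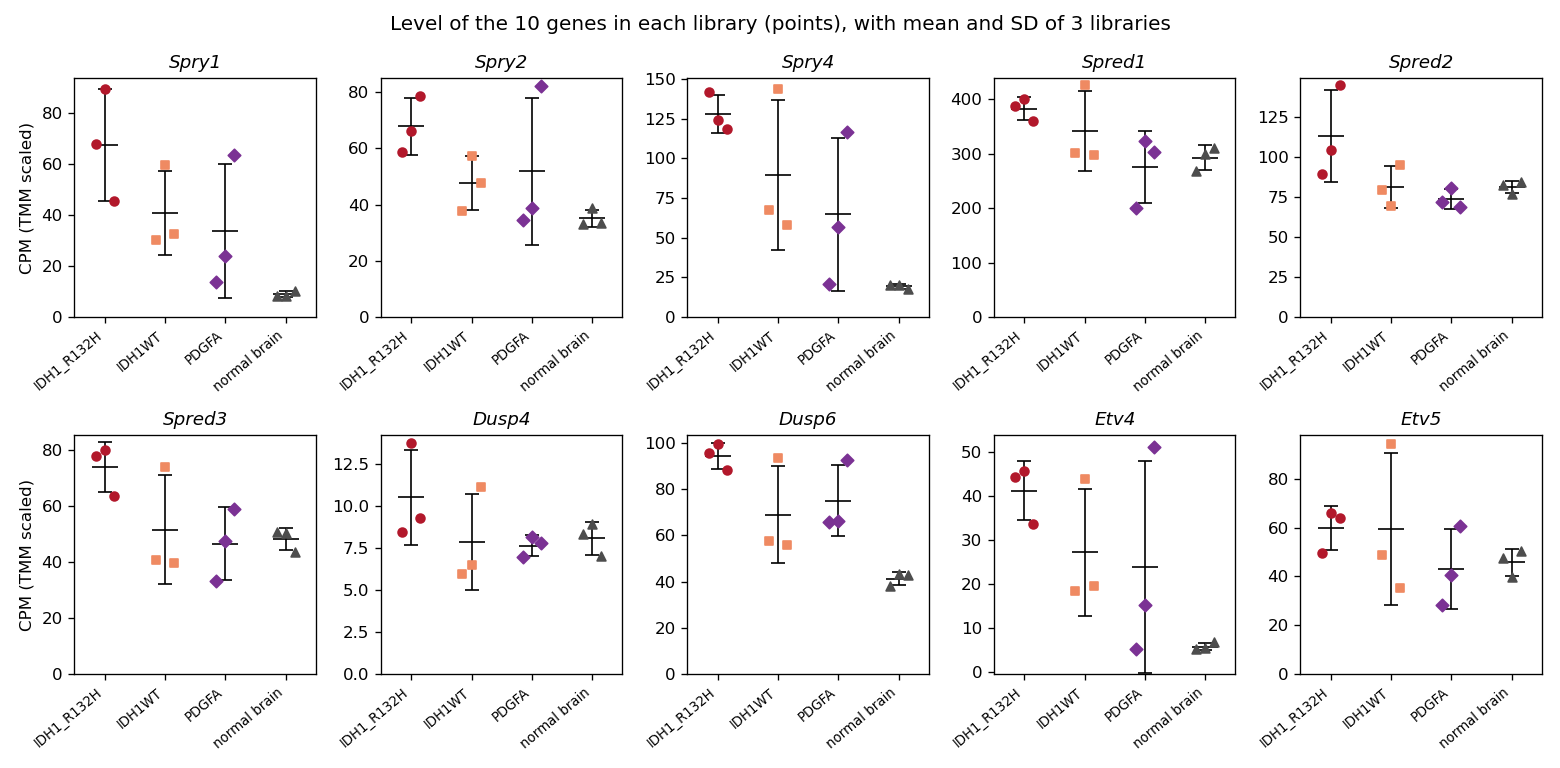
Level of each of the 10 genes in CPM (vertical axis, linear, own scale per gene) in the 3 libraries of each group (points), with the mean (long dash) and SD (capped bar). For Spry1, Spry4 and Dusp6 every tumour lies above the highest normal brain, whereas the groups overlap for Spred1, Spred2, Spred3, Dusp4 and Etv5. The SD bar of Etv4 in PDGFA tumours reaches below 0 because 1 of the 3 tumours is far higher than the others.

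Of the Sprouty genes Spry1 and Spry4 were called and Spry2 was not. Spry1 had 67.7, 89.4 and 45.4 CPM in IDH1_R132H tumours, 30.3, 59.8 and 32.5 CPM in IDH1WT tumours and 13.8, 23.9 and 63.4 CPM in PDGFA tumours, against 8.31, 8.12 and 10.3 CPM in normal brain. All 9 tumours were above all 3 normal brains, with PDGFA tumour 1 nearest to them and IDH1_R132H tumour 2 highest. Over all tumours Spry1 rose 5.06-fold, a log2 fold change of 2.34 (SE 0.44 and adjusted p = 0.0176 by edgeR). Spry4 had 142, 124 and 118 CPM in IDH1_R132H tumours, 67.3, 144 and 57.8 CPM in IDH1WT tumours and 21.02, 56.6 and 117 CPM in PDGFA tumours, against 20.3, 20.5 and 17.4 CPM in normal brain. Every tumour was again above every normal brain, but PDGFA tumour 1 only just. Spry4 rose 4.66-fold, a log2 fold change of 2.22 (SE 0.45 and adjusted p = 0.0209 by edgeR). Spry2, the Sprouty gene with the highest level per kilobase in normal brain, had 58.7, 66.2 and 78.5 CPM in IDH1_R132H tumours, 37.8, 57.2 and 47.9 CPM in IDH1WT tumours and 34.7, 38.8 and 82.1 CPM in PDGFA tumours, against 33.3, 38.7 and 33.4 CPM in normal brain. IDH1_R132H tumours were all above normal brain, while 1 IDH1WT and 1 PDGFA tumour lay within its range. For all tumours the log2 fold change of Spry2 was 0.65 (SE 0.24, 95% interval 0.13 to 1.17, edgeR adjusted p = 0.128), which did not pass the threshold.

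No Spred gene was called over all tumours, and their fitted changes were small. Spred1 had 387, 400 and 360 CPM in IDH1_R132H tumours, 301, 426 and 297 CPM in IDH1WT tumours and 201, 324 and 303 CPM in PDGFA tumours, against 267, 299 and 311 CPM in normal brain. IDH1_R132H tumours were above normal brain, PDGFA tumour 1 was below it, and the other tumours lay within or above its range. The log2 fold change over all tumours was 0.18 for Spred1 (95% interval -0.19 to 0.54). Spred2 had 89.5, 104 and 145 CPM in IDH1_R132H tumours, 79.3, 69.5 and 95.1 CPM in IDH1WT tumours and 72.0, 80.7 and 68.6 CPM in PDGFA tumours, against 82.3, 76.9 and 84.4 CPM in normal brain. The highest value belonged to IDH1_R132H tumour 3, the library rich in ribosomal RNA. Spred3 had 77.8, 80.2 and 63.8 CPM in IDH1_R132H tumours, 40.9, 74.0 and 39.9 CPM in IDH1WT tumours and 33.2, 47.5 and 59.2 CPM in PDGFA tumours, against 50.7, 50.6 and 43.7 CPM in normal brain. Values of Spred3 fell on both sides of normal brain in IDH1WT and PDGFA tumours and above it in IDH1_R132H tumours. Log2 fold changes over all tumours were 0.11 for Spred2 (95% interval -0.21 to 0.44) and 0.22 for Spred3 (95% interval -0.24 to 0.67).

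Of the phosphatase genes Dusp6 was called and Dusp4 was not. Dusp6, which encodes the cytoplasmic ERK phosphatase, had 95.4, 99.4 and 88.2 CPM in IDH1_R132H tumours, 57.7, 93.2 and 56.0 CPM in IDH1WT tumours and 65.8, 66.1 and 92.6 CPM in PDGFA tumours, against 37.9, 43.2 and 42.6 CPM in normal brain. All tumours were above all normal brains, PDGFA tumour 1 included. Dusp6 rose 1.91-fold, a log2 fold change of 0.93 (SE 0.18 and adjusted p = 0.0181 by edgeR). Dusp4, which encodes the nuclear phosphatase, had 8.45, 13.7 and 9.28 CPM in IDH1_R132H tumours, 5.96, 6.46 and 11.1 CPM in IDH1WT tumours and 6.93, 8.12 and 7.79 CPM in PDGFA tumours, against 8.31, 8.89 and 7.002 CPM in normal brain. Tumours and normal brain overlapped throughout. The log2 fold change of Dusp4 was 0.09 (SE 0.23, 95% interval -0.4 to 0.58), which excludes a rise as large as the one fitted for Dusp6.

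Of the ETS-family genes Etv4 was called and Etv5 was not. Etv4 had 44.3, 45.8 and 33.6 CPM in IDH1_R132H tumours, 18.4, 43.9 and 19.5 CPM in IDH1WT tumours and 5.25, 15.2 and 51.2 CPM in PDGFA tumours, against 5.31, 5.38 and 6.74 CPM in normal brain. All but 1 of the 9 tumours were above normal brain, and PDGFA tumour 1 was just below its lowest value. Etv4 rose 5.13-fold, a log2 fold change of 2.36 (SE 0.57 and adjusted p = 0.0364 by edgeR), and its spread was the widest of the 10 genes, with a coefficient of variation of 101% among PDGFA tumours. Etv5 had 49.5, 65.8 and 63.9 CPM in IDH1_R132H tumours, 48.8, 94.4 and 35.1 CPM in IDH1WT tumours and 28.2, 40.8 and 60.6 CPM in PDGFA tumours, against 47.5, 39.6 and 50.4 CPM in normal brain. IDH1WT tumour 2 was highest and PDGFA tumour 1 lowest, and the groups overlapped. The log2 fold change of Etv5 was 0.22 (SE 0.28, 95% interval -0.38 to 0.82), short of the threshold.

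Across the tumours as a whole, 4 of the 10 genes rose (Spry1, Spry4, Dusp6 and Etv4) and 0 fell, where 3.71% of all genes tested rose and 5.22% changed in either direction. For 3 of the 10 (Spry1, Spry4 and Dusp6) tumours and normal brain did not overlap, with the tumours higher, as for 4.67% of all genes. The fitted change was positive for all 10, against 48.7% of all genes, and its median was 0.44 against -0.01 over all genes on the log2 scale. Many of the 10 varied together among the tumours, as given below, so their signs are not separate observations. In bulk tissue, more cells that make a transcript and more transcript per cell cannot be told apart. The calls rest on 3 normal brains: without any 1 of them, none of the 4 passed the threshold. Nearly all other calls were lost too. Over all genes 0, 1 and 3 were called without normal brain 1, 2 and 3, against 929 with every library. Spry1 kept log2 fold changes of 2.05 or more, Spry4 of 1.97 or more, Dusp6 of 0.84 or more and Etv4 of 1.95 or more over the 12 fits that left out 1 library each. The highest unadjusted p in those fits was 0.00132 for Spry1, 0.00229 for Spry4, 0.00175 for Dusp6 and 0.00678 for Etv4. Etv4 also lost its call without IDH1_R132H tumour 1 (edgeR adjusted p = 0.0534), IDH1_R132H tumour 2 (0.0648) or IDH1WT tumour 2 (0.0503). With both libraries that stand apart left out, 5 of the 10 were called, these 4 and Spry2, beside 2928 of 18672 genes in all, against 929 of 17812 with every library.

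Set against normal brain on their own, the 3 tumour groups share the same 3 normal libraries, and their values are given side by side. In IDH1_R132H tumours the same 4 genes rose, with log2 fold changes of 2.92 for Spry1 (SE 0.5 and adjusted p = 0.0149 by edgeR), 2.72 for Spry4 (SE 0.5 and adjusted p = 0.0169 by edgeR), 1.19 for Dusp6 (SE 0.21 and adjusted p = 0.0152 by edgeR) and 2.82 for Etv4 (SE 0.64 and adjusted p = 0.0253 by edgeR), where 4.83% of all genes rose. In these tumours 8 of the 10 genes did not overlap with normal brain, all higher, against 19.4% of all genes, and the median log2 fold change of the 10 was 0.78. Spry2 had a log2 fold change of 0.95 (edgeR adjusted p = 0.063) there and Spred3 of 0.61 (edgeR adjusted p = 0.151). These 4 calls were all lost without IDH1_R132H tumour 2 as well as without any normal brain, and that of Etv4 also without IDH1_R132H tumour 1, while all 4 held without IDH1_R132H tumour 3. Over all genes 1 was called without IDH1_R132H tumour 2, and 0, 0 and 1 without normal brain 1, 2 and 3, against 1278 with every library.

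In IDH1WT tumours 2 of the 10 genes rose, Spry1 with a log2 fold change of 2.18 (SE 0.49 and adjusted p = 0.0461 by edgeR) and Spry4 with 2.21 (SE 0.49 and adjusted p = 0.047 by edgeR), where 1.57% of all genes rose. Dusp6 at 0.74 (edgeR adjusted p = 0.0827) and Etv4 at 2.21 (edgeR adjusted p = 0.0855) missed the threshold, though none of the 3 IDH1WT tumours overlapped with normal brain for either gene. Non-overlap with the tumours higher was seen for 4 of the 10 genes and 17.4% of all genes. Both calls lay close to the threshold, and over the 12 fits without 1 library the call of Spry1 was lost in 8 and that of Spry4 in 9, with log2 fold changes still between 1.81 and 2.34 for Spry1 and between 1.69 and 2.42 for Spry4. Over all genes those fits called 0 to 1090, against 307 with every library. Limma on the deposited log2 values called 0 of the 10 in this comparison, whereas DESeq2 called 4. Over all genes limma on those values called 83 genes and DESeq2 1271, against 307 by edgeR.

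In PDGFA tumours edgeR called 0 of the 10 genes, where 0.258% of all genes rose. There, 4 had an unadjusted p under 0.05, against 10.6% of all genes: Spry1 (log2 fold change 1.91, edgeR adjusted p = 0.125), Spry4 (1.74, adjusted p = 0.162), Dusp6 (0.86, adjusted p = 0.11) and Etv4 (2.04, adjusted p = 0.216). DESeq2 called these 4, limma voom with sample quality weights called 3, and limma on the deposited log2 values called 0, beside 484, 439 and 0 of all genes. The count turned on PDGFA tumour 1, the library among the normal brains on the first component: without it edgeR called the same 4 genes, with log2 fold changes of 2.29 for Spry1, 2.16 for Spry4, 0.95 for Dusp6 and 2.51 for Etv4. Over all genes the calls without it were 828 of 18816, against 54 of 17812 with it. Non-overlap with the tumours higher held for 3 of the 10 genes in PDGFA tumours, against 8.23% of all genes.

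**Figure D2:**
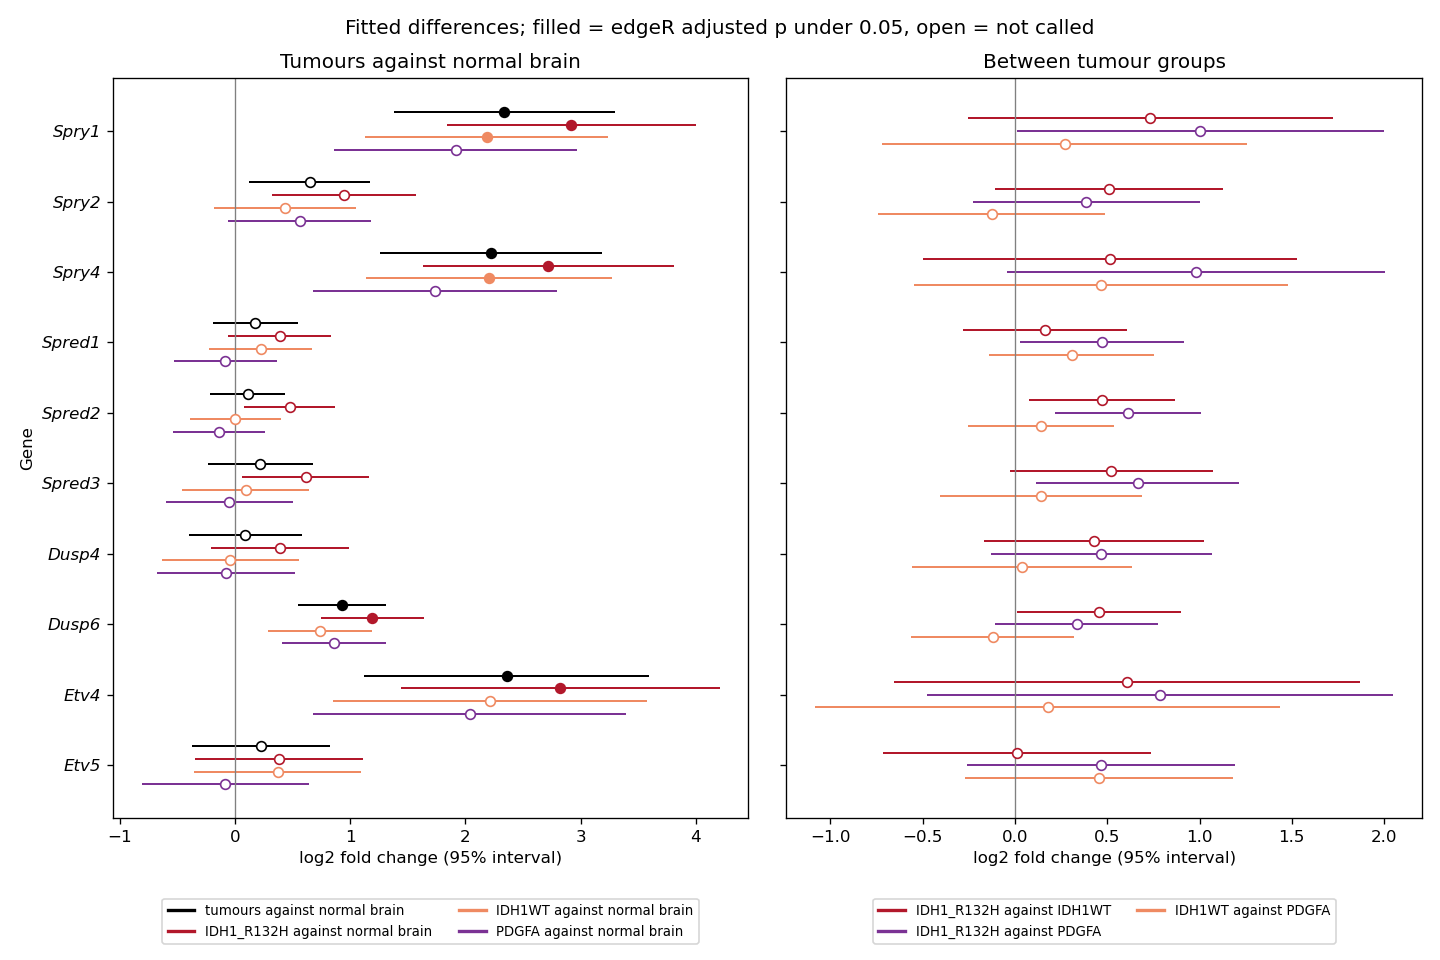
Fitted log2 fold change (horizontal axis) with its 95% interval for each gene (vertical axis), tumours against normal brain on the left and tumour groups against each other on the right. Filled circles passed an edgeR adjusted p of 0.05 and open circles did not. On the left Spry1, Spry4, Dusp6 and Etv4 lie to the right of 0 in every comparison, and on the right no gene passed.

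Between tumour groups edgeR called 0 of the 10 genes and 0 of all genes in each of the 3 comparisons, while DESeq2 called 137 genes for IDH1_R132H against PDGFA tumours and 9 for IDH1WT against PDGFA tumours, with 0 of the 10 among them. For IDH1_R132H against IDH1WT tumours, the comparison closest to the aim of the series, all 10 fitted changes were positive, against 49.3% of all genes, with a median of 0.49 on the log2 scale. Of the cell markers described below, all 12 of oligodendrocyte precursors were positive there too, with a median of 0.42. Other marker lists ran from 1 of 10 positive, for myelinating oligodendrocytes and the cell cycle, to 9 of 10 for microglia and macrophages. Many of the 10 genes varied together among the tumours (median pairwise r 0.75, below). Their signs are thus not 10 separate observations in any of the 3 comparisons. Unadjusted p-values were under 0.05 for 2 of the 10, Spred2 and Dusp6, against 2.67% of all genes. Spred2 had a log2 fold change of 0.47 (SE 0.18, 95% interval 0.08 to 0.87) and Dusp6 of 0.46 (SE 0.2, 95% interval 0.01 to 0.9), both with an edgeR adjusted p of 0.9996. The count of 2 was 0 without IDH1WT tumour 1, 1 without IDH1_R132H tumour 1 or 2, and 5 without PDGFA tumour 3. Spred2 was 0.25 without IDH1_R132H tumour 3 and 0.37 without IDH1WT tumour 2. Intervals, which rest on a spread estimated over all 4 groups, were widest for 3 genes. These were Spry1 at 0.73 (95% interval -0.25 to 1.72), Spry4 at 0.51 (95% interval -0.5 to 1.53) and Etv4 at 0.61 (95% interval -0.65 to 1.87). Neither no difference nor a 2-fold rise was excluded for these 3 genes. Only Spry2 did not overlap between the groups (log2 fold change 0.51, 95% interval -0.11 to 1.13), where 2.96% of all genes were higher without overlap. The other changes were 0.16 for Spred1, 0.52 for Spred3, 0.43 for Dusp4 and 0.01 for Etv5, and Etv5 ranged from -0.24 to 0.51 as single libraries were left out. In DESeq2 and both limma fits 0 of the 10 were called.

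IDH1_R132H tumours against PDGFA tumours also gave 10 positive changes, against 48.9% of all genes, with a median of 0.54 on the log2 scale. Every oligodendrocyte precursor marker (median 1.09) and every astrocyte marker (median 0.40) was positive there too, and no myelinating oligodendrocyte marker was. Unadjusted p-values were under 0.05 for 4 of the 10, against 10.9% of all genes: Spry1 at 1.004 (SE 0.46 and adjusted p = 0.454 by edgeR), Spred1 at 0.47 (SE 0.21 and adjusted p = 0.438 by edgeR), Spred2 at 0.61 (SE 0.18 and adjusted p = 0.335 by edgeR) and Spred3 at 0.66 (SE 0.25 and adjusted p = 0.399 by edgeR). That count was between 1 and 9 when single libraries were left out, with 1 without PDGFA tumour 1, IDH1_R132H tumour 1 or IDH1_R132H tumour 2 and 9 without PDGFA tumour 3, and it was 0 without both libraries that stand apart. It was 2 without any 1 of the normal brains. Spry4, Spred1, Spred2, Spred3 and Dusp4 did not overlap between the groups, 5 of the 10 against 5.86% of all genes. Spry4 had a log2 fold change of 0.98 (95% interval -0.04 to 2), and Spred2 was 0.38 without IDH1_R132H tumour 3. Without PDGFA tumour 3, where Etv4 and Spry1 matched the IDH1_R132H tumours, the change of Etv4 was 1.99 and that of Spry1 was 1.83, against 0.79 and 1.004 with it. Without PDGFA tumour 1 the changes of Spry1, Spry4 and Etv4 were 0.63, 0.55 and 0.31. Limma voom called Spry1 alone and DESeq2 called 0. IDH1WT against PDGFA tumours gave 8 positive changes with a median of 0.16; 0 of the 10 had an unadjusted p under 0.05, against 5.83% of all genes, and 0 of the 10 did not overlap, against 4.32% of all genes higher without overlap. DESeq2 and both limma fits called 0 of the 10 there.

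Among the 9 tumours the 10 genes were compared pair by pair on log2 CPM. All 45 pairs had a positive Pearson r, with a median of 0.75, and 25 passed an adjusted p of 0.05 by exact two-sided permutation (16 by Spearman's rho). The share over all gene pairs was not computed, so these counts do not set the 10 genes apart. The permutation shuffled the 9 tumours without regard to group. Spry4 and Etv4 had r = 0.98 and rho = 0.75 (exact permutation adjusted p = 0.00562 and 0.0546), Spry1 and Etv4 had r = 0.97 and rho = 0.95 (0.00211 and 0.0112), and Spry1 and Spry4 had r = 0.94 and rho = 0.83 (0.00562 and 0.0286). Leaving out the 2 tumours farthest from the median of the first gene, r was 0.92, 0.99 and 0.94 for these 3 pairs. Spred3, which was not called against normal brain, tracked the same tumours, with r = 0.92 to Spry1, 0.92 to Spry4 and 0.91 to Dusp6. Spred2 and Dusp4 stood outside: no pair with either passed by Pearson's r, and their own pair had r = 0.61 and rho = 0.8 (exact permutation adjusted p = 0.128 and 0.0415). The number of pairs that passed was between 13 and 26 when single tumours were left out, with 13 without PDGFA tumour 1, where the median r was 0.66. The 3 tumours of a group are too few for a value within groups.

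**Figure D3:**
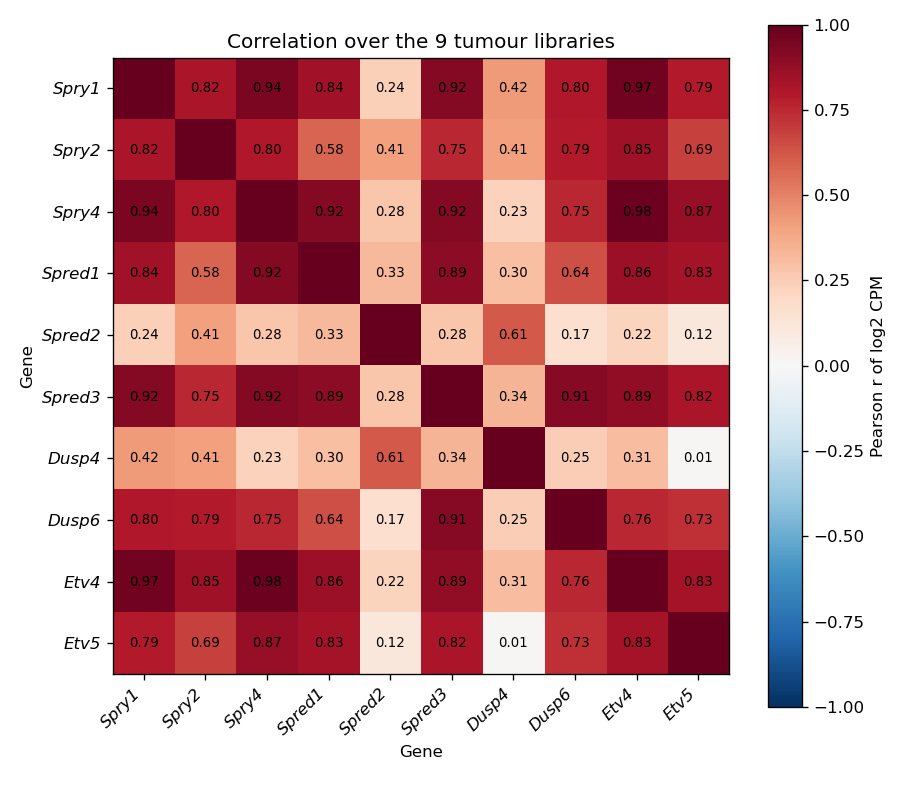
Pearson r of log2 CPM over the 9 tumour libraries for every pair of the 10 genes (both axes list the genes, colour runs from -1 to 1). Spry1, Spry4, Spred3 and Etv4 form the block of highest values, up to 0.98, and the columns of Spred2 and Dusp4 are pale.

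The genes most like each member over the 9 tumours, by Pearson r of log2 CPM, are given as a description of these 9 libraries. For Spry1 they were S1pr2, a sphingosine 1-phosphate receptor gene (0.98), Calcrl, a calcitonin receptor-like gene (0.98), and Zeb1, a transcription factor gene (0.98). For Spry4 they were Gng12, a G protein subunit gene (0.99), Nr2e1, a nuclear receptor gene of neural stem cells (0.99), and Trib2, a pseudokinase gene (0.98). Etv4 was closest to Tnpo1, a nuclear import receptor gene (0.99), Npas3, a transcription factor gene of neurons and glia (0.99), and again S1pr2 (0.99). Spred3 had Il17rd, another feedback inhibitor gene of this pathway also known as Sef, in second place (0.96), after Sec11c (0.97) and before Inka2 (0.96). Dusp6 was closest to Klhl13 (0.98), Rab39 (0.97) and Sppl2b (0.96). Spry2 was closest to Fam120a, Nf2 and Ccnk (all 0.96), Spred1 to Stam2 (0.99), Yipf6 (0.98) and Emilin1 (0.98), and Etv5 to Cfap43 (0.97), Peli2 and Hykk (both 0.95). For Spred2 they were Zfp703 (0.96), Nsdhl (0.94) and Trp53i11 (0.93), and for Dusp4 Parvb (0.93), Zdhhc18 (0.93) and Gem (0.9).

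The rest of the pathway was read in 5 lists of genes, by the position of each gene in the pathway. Of 18 receptors and ligands, 3 rose and 1 fell in tumours against normal brain, where 3.71% of all genes rose, and the median log2 fold change was 0.14. Pdgfra, the gene of the receptor PDGFRA, averaged 821 ± 548 CPM in tumours (SD, n = 9) and 48.6 ± 1.52 CPM in normal brain (SD, n = 3), a log2 fold change of 3.93 (SE 0.68 and adjusted p = 0.016 by edgeR). By group Pdgfra averaged 1189 CPM in IDH1_R132H, 892 CPM in IDH1WT and 381 CPM in PDGFA tumours. Erbb3, a receptor gene of the ErbB family, rose by 1.68 (SE 0.41 and adjusted p = 0.0384 by edgeR) and Pdgfa by 0.98 (SE 0.24 and adjusted p = 0.0399 by edgeR) on the log2 scale. Fgfr2, a fibroblast growth factor receptor gene, fell by 0.74 (SE 0.17 and adjusted p = 0.0284 by edgeR). Counts of Pdgfa and Idh1 do not separate introduced from endogenous transcripts and so check no label; Idh1 averaged 58.8 CPM in IDH1_R132H tumours, 47.7 CPM in IDH1WT tumours, 35.0 CPM in PDGFA tumours and 24.4 CPM in normal brain.

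In the 2 lists between receptor and ERK, 1 gene each rose and 0 fell, where 3.71% of all genes rose, so nothing is read about these lists from the counts. Of 18 adaptors and Ras regulators 1 rose, Gab1, a docking protein gene, by 1.40 on the log2 scale (SE 0.28 and adjusted p = 0.0209 by edgeR), and the median of the list was 0.02. Rasa3 at 0.83, Rasgrf1 at -0.64 and Cbl at 0.50 were next by p and not called, with edgeR adjusted p of 0.0519, 0.0966 and 0.131. Of 17 genes of the Ras, Raf, MEK and ERK step, 1 rose, Nras, by 0.95 (SE 0.19 and adjusted p = 0.0209 by edgeR), while the median was -0.12. Rps6ka2 at -0.59, Hras at -0.56 and Ksr2 at -0.52 followed without a call, with edgeR adjusted p of 0.0823, 0.113 and 0.176.

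Other feedback genes had a median near that of all genes, and other ERK output genes a higher one. Of 16 other feedback genes 1 rose, Spsb1, by 0.81 on the log2 scale (SE 0.2 and adjusted p = 0.0377 by edgeR), and the median was -0.03. Dusp8 at -0.61, Il17rd at 0.70 and Dusp2 at 1.22 were not called, with edgeR adjusted p of 0.0801, 0.0806 and 0.138. Of 15 tested ERK output genes, out of 16 listed, 5 rose and 0 fell, where 3.71% of all genes rose. The fitted change was positive for 11 of the 15, with a median of 0.82. Ccnd1, which encodes the G1 cyclin D1, averaged 403 ± 224 CPM in tumours (SD, n = 9) and 38.5 ± 11.9 CPM in normal brain (SD, n = 3), a log2 fold change of 3.35 (SE 0.62 and adjusted p = 0.0173 by edgeR). Myc rose by 2.15 (SE 0.44 and adjusted p = 0.0216 by edgeR), Ets1 by 1.58 (SE 0.29 and adjusted p = 0.0173 by edgeR) and Elk3 by 1.39 (SE 0.29 and adjusted p = 0.0239 by edgeR), all transcription factor genes. Phlda1, named after its value was seen as the remaining called gene of the list, rose by 1.59 (SE 0.35 and adjusted p = 0.0282 by edgeR). Etv1 and Epha4, also named after their values were seen, were lower on average in tumours. They averaged 62.5 and 142 CPM there, against 77.4 and 178 CPM in normal brain. Fosl1 did not pass the filter on low counts.

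Several cell markers also differed between tumours and normal brain, and their part in the results was not tested. Of 12 oligodendrocyte precursor markers 11 rose in tumours against normal brain, Pdgfra among them; the marker list shares that gene with the receptors above. Their summed level was 3898, 4918 and 2022 CPM in IDH1_R132H tumours, 1476, 4557 and 2109 CPM in IDH1WT tumours and 371, 979 and 2647 CPM in PDGFA tumours, against 247, 247 and 253 CPM in normal brain. PDGFA tumour 1, the tumour with the lowest Spry1, Spry4 and Etv4, had the lowest sum, and IDH1WT tumour 2 and PDGFA tumour 3 had the highest of their groups, as they did for those 3 genes. The relation to each of the 10 genes over the 9 tumours was computed after the values were seen, as 1 of 20 relations. Spry1 had r = 0.96 and rho = 0.93 (exact permutation adjusted p = 0.00105 and 0.015), Etv4 had r = 0.95 and rho = 0.87 (0.00386 and 0.0301) and Spry4 had r = 0.93 and rho = 0.87 (0.00423 and 0.0301). Without IDH1_R132H tumour 2 and PDGFA tumour 1, the tumours farthest from the median sum, r was 0.91 for Spry1, 0.85 for Etv4 and 0.84 for Spry4. Dusp6 had r = 0.67 and rho = 0.77 (exact permutation adjusted p = 0.0877 and 0.0611), with 65.8 CPM even in PDGFA tumour 1. Spred1 at r = 0.90, Spred3 at 0.87 and Etv5 at 0.79 also passed by Pearson's r. By rho Spred3 passed (exact permutation adjusted p = 0.0413), while Spred1 and Etv5 did not (0.0611 for each). Spry2 at r = 0.71, Dusp4 at 0.39 and Spred2 at 0.22 passed by neither.

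**Figure D4:**
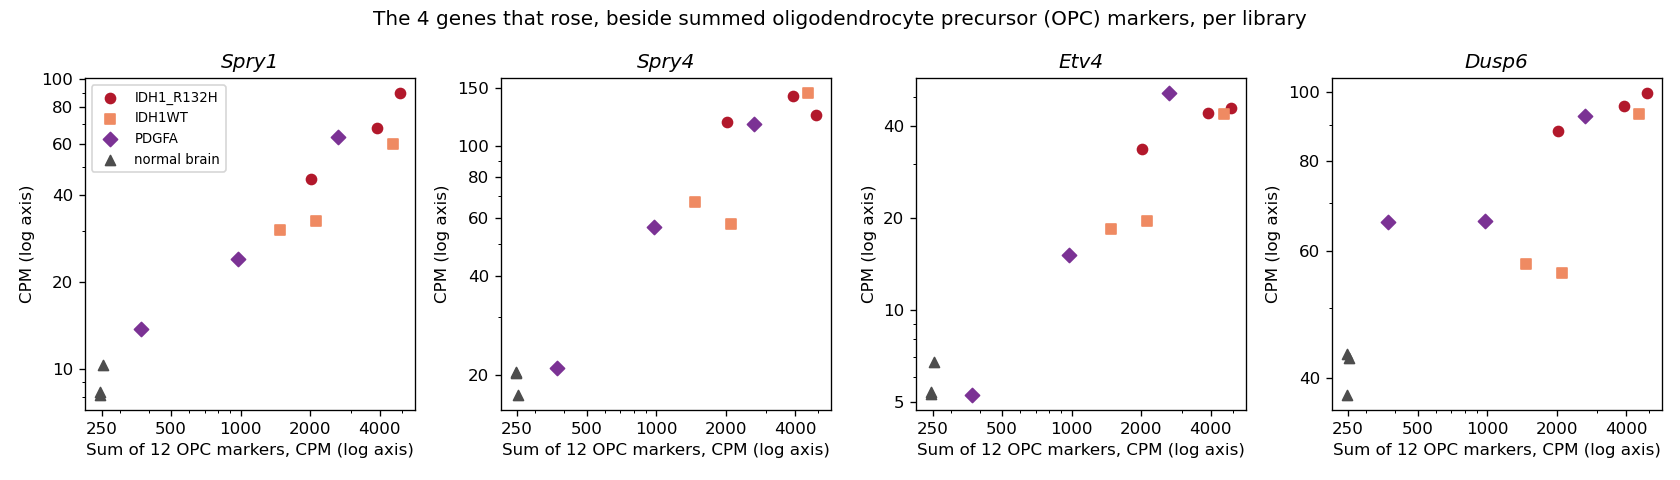
CPM of the 4 genes that rose (vertical axes, log scale) against the summed CPM of 12 oligodendrocyte precursor markers (horizontal axes, log scale) in each of the 12 libraries, coloured by group. Normal brains sit at the lower left near a sum of 250 CPM. IDH1_R132H tumours 1 and 2 and IDH1WT tumour 2 sit at the upper right. For Dusp6 PDGFA tumour 1 lies apart from normal brain at a similar sum.

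Cell cycle genes moved too, with 8 of 10 called higher and a summed level of 118 to 715 CPM in tumours against 15.6 to 23.7 CPM in normal brain; Mki67 had a log2 fold change of 6.03 (SE 0.8 and adjusted p = 0.0108 by edgeR). None of the 10 relations between a member and the summed cell cycle markers passed an adjusted p of 0.05, with r from 0.04 for Spred2 to 0.77 for Spry2 (exact permutation adjusted p = 0.0525 for Spry2). Endothelial markers rose in 5 of 10, at 217 to 355 CPM in tumours against 163 to 189 CPM in normal brain. The tumours still held brain tissue: summed neuron markers were 2936 to 7645 CPM in tumours against 6476 to 6885 CPM in normal brain. The libraries that stand apart, PDGFA tumour 1 at 7645 CPM and IDH1_R132H tumour 3 at 7421 CPM, were above normal brain. Without them tumours were at 2936 to 5643 CPM, all below normal brain. With every library 0 of 12 neuron markers were called by edgeR and 2 of 12 had an unadjusted p under 0.05. The fitted change was positive for 0 of the 12 neuron markers, with a median of -0.42 on the log2 scale. Astrocyte markers summed to 1009 to 6350 CPM in tumours against 4892 to 5006 CPM in normal brain, with 1 of 10 called higher, Gfap. Myelinating oligodendrocyte markers summed to 2146 to 11207 CPM in tumours against 3395 to 3451 CPM in normal brain, and microglia and macrophage markers to 25.6 to 319 CPM in tumours against 97.7 to 163 CPM in normal brain; edgeR called 0 of 10 in each list, with 4 of 10 at an unadjusted p under 0.05 in each. PDGFA tumour 1 had the lowest astrocyte, microglia and macrophage, and cell cycle sums of all tumours, and the highest neuron and myelinating oligodendrocyte sums. No marker of these 7 lists was at 0 in any library.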

How the data were processed

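RNA-seq of 12 libraries in 4 groups of 3 was used. The deposited table holds raw read counts per gene. The submitters' processing notes list the build GRCm38, featureCounts 1.5.1 of the Subread package, the aligner STAR 2.5.2b and DESeq2 1.16.1, without roles; the notes used here give neither annotation nor strand setting. A second deposited table holds regularised log2 values by the authors and served only as an alternative. Columns were matched to samples by name, and replicate numbers follow record order and pair nothing. One item of the mouse genotype is not reported here. Symbols, exon lengths and coordinates came from GENCODE M21.

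The main test was edgeR 4.0.16 (R 4.3.3): filterByExpr by group (minimum count 10, minimum total 15), TMM, a robust quasi-likelihood fit over all 12 libraries with 4 group means, and Benjamini-Hochberg adjustment over 17812 genes, called at adjusted p under 0.05. All-tumour values are the mean of the 3 tumour groups. Standard errors are the log2 fold change divided by the root of F. Alternatives were RLE size factors, DESeq2 1.42.0, no filter, limma 3.58.1 (voom with quality weights; trend on the deposited log2 values), removal of 359 loci that take ribosomal RNA reads, and leaving out libraries. The pipeline was tested on simulated data. Correlations used log2 CPM with a prior count of 2 and exact two-sided permutation. The 10 genes, the pathway lists and the marker lists were chosen with earlier results of these data known. Named genes were all 10 members, the 4 smallest p of each pathway list in tumours against normal brain, the 3 genes most like each member, and Idh1, Pdgfa, Pdgfra and Mki67.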

Additional observations from a re-analysis of the deposited data

Results flagged for a closer look

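Spred2 in IDH1_R132H tumour 3 was far from the other tumours: 145 CPM, against 104 CPM in the next highest of the 9. The gap to that neighbour was 0.536 of the whole range, above Dixon's critical value of 0.493 for 9 samples. About 1 in 20 groups would be picked out this way by chance, and 10 genes were examined. The same library had 46.2% of its counts on loci that take up ribosomal RNA reads; whether that bears on Spred2 was not tested. Without it the log2 fold change of Spred2 was 0.25 for IDH1_R132H against IDH1WT tumours, 0.38 against PDGFA tumours and 0.24 against normal brain, and with it 0.47, 0.61 and 0.47.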

How the results depend on the processing

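No paired analysis was possible because the labels give no replicate numbers shared between groups. Over the 7 comparisons, 0 of the 10 called member values reversed under any setting, and the 18 values that reversed outside leaving out single libraries were all uncalled, the largest being 0.28 in size. RLE scaling moved no call. In tumours against normal brain, 929 genes were called, and 2084 with DESeq2, 2204 without a filter, 5997 with limma voom and 2928 without both libraries that stand apart; the 10 members gave 4 to 5 calls. For IDH1_R132H against normal brain (1278 genes) the same settings gave 2438, 2468, 7331 and 2167, and voom called 9 members. For IDH1WT against normal brain (307 genes) they gave 1271, 1555, 2975 and 1300, with 4 members called by DESeq2, by voom and without both libraries, while limma on the deposited log2 values called 83 genes and 0 members. For PDGFA against normal brain (54 genes) they gave 484, 958, 439 and 970, with 4 members called by DESeq2, without a filter and without both libraries and 3 by voom; limma on the log2 values called 0 genes. Between tumour groups (0 genes each), no filter gave 79 genes for IDH1_R132H against IDH1WT, 627 with 2 members (Spry1 and Spry4) for IDH1_R132H against PDGFA and 261 for IDH1WT against PDGFA. DESeq2 gave 137 genes for IDH1_R132H against PDGFA and 9 for IDH1WT against PDGFA. For IDH1_R132H against PDGFA voom gave 358 genes and 1 member (Spry1), and 1 gene was called on the log2 values and 1 without both libraries; IDH1WT against PDGFA gave 3 genes without both. No cause of these shifts was tested. Reversed log2 fold changes were, for IDH1WT against normal brain, Spred2 at -0.042 without a filter, -0.0045 on the log2 values and -0.0091 without ribosomal RNA loci, and Spred3 at -0.11 and Dusp4 at 0.0072 with voom. For PDGFA against normal brain they were Spred1 at 0.050 with voom and, without both libraries, Spred1 at 0.11, Spred3 at 0.15 and Etv5 at 0.15. Without both libraries Etv5 was -0.035 for IDH1_R132H against IDH1WT, and for IDH1WT against PDGFA Spry1 was -0.094, Spred3 -0.055, Dusp4 -0.028 and Etv4 -0.28. In the last comparison Dusp4 was also -0.024 without a filter and -0.0077 on the log2 values, and voom gave Spry2 at 0.10 and Spred3 at -0.016.

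Leaving out 1 library at a time, members called were 0 to 5 for tumours, 0 to 5 for IDH1_R132H, 0 to 4 for IDH1WT and 0 to 4 for PDGFA tumours, each against normal brain, and 0 in each comparison of tumour groups. Genes called were 0 to 2536, 0 to 2303, 0 to 1090 and 0 to 828 for the first 4 comparisons, 0 to 43 for IDH1_R132H against PDGFA and 0 to 1 for IDH1WT against PDGFA. Uncalled members whose sign turned ranged, against normal brain, from -0.029 to 0.16 for Dusp4 in all tumours; in IDH1WT tumours from -0.14 to 0.10 for Spred2, -0.26 to 0.23 for Spred3, -0.39 to 0.12 for Dusp4 and -0.13 to 0.62 for Etv5; and in PDGFA tumours from -0.21 to 0.10 for Spred1, -0.25 to 0.15 for Spred3 and -0.40 to 0.15 for Etv5. Etv5 ranged from -0.24 to 0.51 for IDH1_R132H against IDH1WT. For IDH1WT against PDGFA the ranges were -0.12 to 1.09 for Spry1, -0.36 to 0.36 for Spry2, -0.050 to 1.18 for Spry4, -0.0030 to 0.24 for Spred2, -0.21 to 0.33 for Spred3, -0.31 to 0.20 for Dusp4, -0.40 to 0.043 for Dusp6, -0.34 to 1.37 for Etv4 and -0.042 to 0.76 for Etv5. The count of correlated pairs ranged from 13 to 26. Without a filter the all-gene median moved by over 0.1 for IDH1WT against normal brain (0.09, against -0.01 with it) and for IDH1WT against PDGFA (0.14, against -0.01 with it), so members' changes there are relative to that shift. With 3 libraries a group and a variation of 26.5%, a member difference whose printed interval spans 0 was not detectable, which does not show that it is absent.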
